A study of Mus musculus with 20 samples.

Results

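The 10 genes described here, Chd4, Mta1, Mta2, Mta3, Hdac1, Hdac2, Rbbp4, Rbbp7, Mbd3 and Gatad2b, encode subunits of the nucleosome remodelling and deacetylase (NuRD) corepressor, the complex that IKZF1 (Ikaros) recruits. They were chosen by name for their place in the complex and matched from gene symbol to mouse Ensembl identifier, and each symbol matched 1 of the 56239 gene identifiers counted. All 10 had at least 10 counts in at least 2 libraries and were among the 16601 genes tested. A further 6 genes of the complex, Chd3, Chd5, Gatad2a, Mbd2, Cdk2ap1 and Cdk2ap2, were followed beside them.

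The cells were B3, a mouse pre-B cell line transduced with a retrovirus that carries Ikaros-ERt2, in which IKZF1 is fused to an estrogen receptor domain and enters the nucleus once 4-hydroxytamoxifen (4-OHT) is added. All 20 libraries came from this one transduced line. Cells at 0 h had no 4-OHT, and cells at 30 min and at 1, 2, 6, 12, 15, 18, 21 and 24 h had 500 nM. Each of the 10 time points had 2 replicates. RNA that stayed bound to chromatin, which is rich in transcripts still being made, was sequenced. No time-matched library without 4-OHT or without the fusion was used here, so that nuclear IKZF1, 4-OHT itself and time in culture cannot be told apart in any comparison with 0 h. In bulk RNA, fewer cells of a type and less RNA per cell cannot be told apart either.

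NuRD joins a chromatin remodelling ATPase and a histone deacetylase in one complex. A CHD protein slides nucleosomes, and MTA proteins form the scaffold that holds and activates HDAC1 and HDAC2. RBBP4 and RBBP7 bind histone tails, an MBD protein and a GATAD2 protein link the deacetylase side to the remodeller, and most of these places are filled by one of several paralogues. Transcription factors such as IKZF1 bring the complex to enhancers and promoters in lymphoid cells, where it removes acetyl groups from histones.

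Total counts per library ranged from 33296158 to 46868954 (median 40943260). Values are CPM (counts scaled to a common library size) after scaling between libraries by the trimmed mean of M values (TMM), and fold changes are log2 values from edgeR. Replicates of the 12 h and 18 h libraries stood apart: per degree of freedom, chi-square between the 2 libraries was 9.95 and 14.9, against 4.78 at 21 h and 1.26 to 2.58 at the other time points. For the members the largest fold between 2 replicates was 1.22, for Mta1 at 18 h, and their median fold was 1.10 at both 12 h and 18 h against 1.01 at 0 h. The labels do not say that replicates were separate cultures, and p-values may then cover technical spread only. The description of 0 h replicate 2 could mean a repeat library of one culture, although its title gives it as replicate 2. This library is part of the baseline in the comparisons with 0 h. Of 10 pre-B markers, 9 had counts, and Rag1 was at 0 in every library. The summed level of the markers was 11069 and 11143 CPM at 0 h and between 7717 and 16059 CPM afterwards. Most of that sum was Ebf1 (9793 CPM at 0 h) and Pax5 (1074 CPM). Single markers moved. At 24 h, 4 of 9 tested were higher (35.4% of all genes) and 4 lower (36.1%) at an adjusted p under 0.01 in edgeR. Igll1 fell from 169 to 0.985 CPM, and Cd79b rose from 15.5 to 75.9 CPM. Summed T cell markers stayed at or below 0.809 CPM, myeloid and erythroid markers at or below 1.62 CPM and fibroblast markers at or below 0.0467 CPM. Ikzf1, whose counts can hold both the cell's own gene and the fusion, rose from 4842 to 8804 CPM at 24 h (log2 0.86, SE 0.04).

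Over the 24 h the NuRD genes did not move as a block. Mta3, Mta1, Rbbp7 and Mbd3 changed more than 2-fold at some time, and the other 6 stayed within 2-fold of 0 h at every time. At the threshold of an adjusted p under 0.01 with a fold above 2, edgeR's quasi-likelihood test over all induced time points with Benjamini-Hochberg adjustment called 4 of the 10 members, where 51.9% of all genes tested were called. At any fold all 10 passed, with 88.0% of all genes passing. The members' share was no higher than the background under the 2-fold rule.

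**Figure D1:**
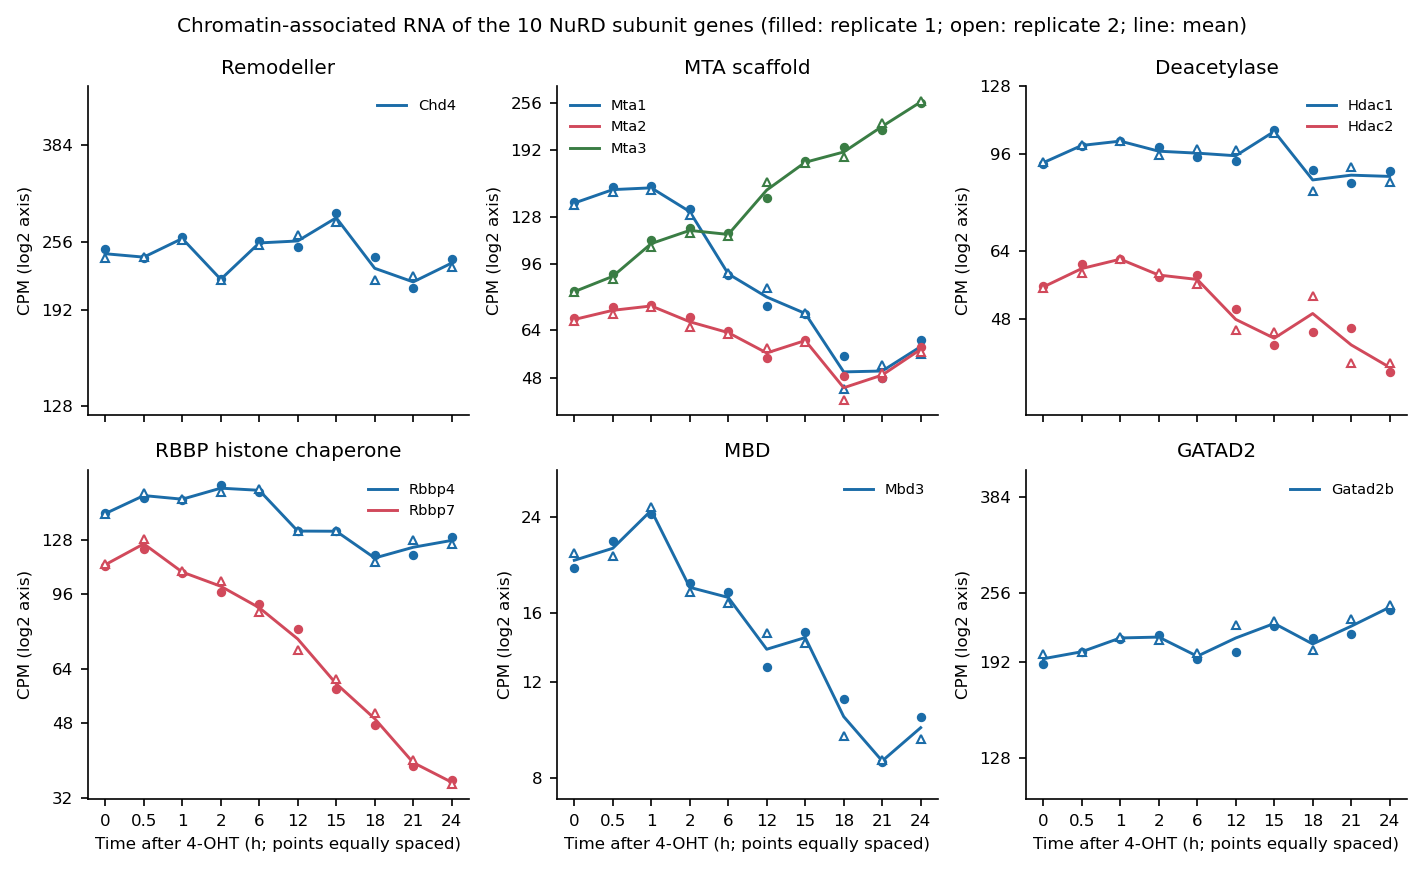
CPM of the 10 NuRD genes (vertical axis, log2 scale) at the 10 time points (horizontal axis, equally spaced), 1 panel for each role in the complex, with filled circles for replicate 1, open triangles for replicate 2 and lines through the means. Mta3 climbs from 81.1 to 258 CPM, Rbbp7 drops from 112 to 34.8 CPM, and Hdac1 stays between 82.5 and 107 CPM.

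At 24 h against 0 h, 2 members were higher and 6 lower at an adjusted p under 0.01 (edgeR quasi-likelihood, Benjamini-Hochberg), where 35.4% of all genes tested were higher and 36.1% lower. The median log2 fold change of the members was -0.24, and that of all genes was -0.01. Scaled by library totals alone, the median of all genes at 24 h moved to -0.27 and the share of higher genes among those that passed went from 49.5% to 38.6%, so that log2 changes near 0 depend on the scaling. Under that scaling Gatad2b no longer passed (0.05, adjusted p 0.308 in edgeR), and Chd4 (-0.31, adjusted p 6.79e-06) and Hdac1 (-0.34, adjusted p 4.67e-06) passed as lower. The directions of Mta3, Mta1, Mta2, Hdac2, Rbbp4, Rbbp7 and Mbd3 at 24 h held under both scalings.

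**Figure D2:**
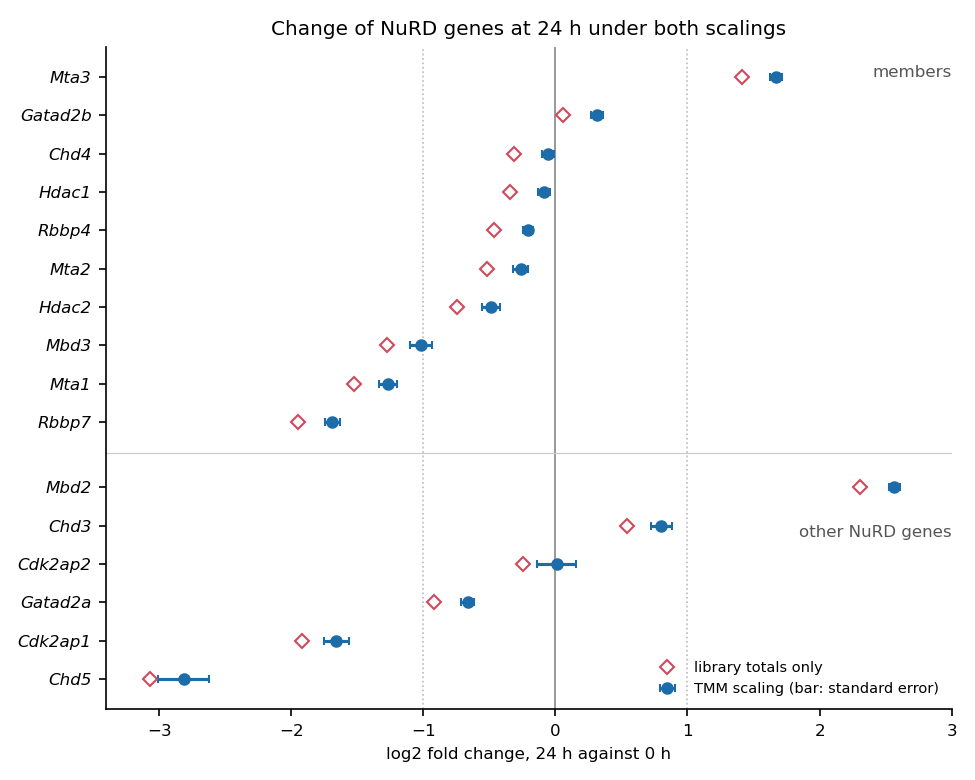
Log2 fold change at 24 h against 0 h (horizontal axis) of the 10 members and of 6 other NuRD genes (rows), with filled circles and standard error bars for TMM scaling and open diamonds for library totals only. Dotted lines mark 2-fold. Mta3 lies at 1.67 and Rbbp7 at -1.69, and all diamonds lie to the left of their circles.

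CHD4 is the ATPase that gives the complex its remodelling activity. Chd4 (chr6:125095981-125130591, plus strand, GRCm38) read 248 and 239 CPM at 0 h and 238 and 230.2 CPM at 24 h. Both libraries at 24 h lay just below those at 0 h, and the log2 fold change of -0.06 (SE 0.04) did not pass (adjusted p 0.228, edgeR quasi-likelihood with Benjamini-Hochberg). It wavered in between, with 219 and 218 CPM at 2 h, 288 and 278 CPM at 15 h and 211 and 222 CPM at 21 h. All of these libraries lay outside the range at 0 h. In log2, Chd4 differed from 0 h by -0.16 at 2 h (adjusted p 0.00351), 0.22 at 15 h (9.20e-05) and -0.17 at 21 h (0.00107) in the edgeR test, in both libraries each time. The scaRNA Gm23751 and the miRNA Mir7045, annotated inside Chd4 on its strand, had 0 counts in every library.

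Per kb of gene body, Chd4 stood first among the members at both ends of the time course, with 7.03 CPM per kb at 0 h and 6.76 CPM per kb at 24 h. In CPM, not divided by length, Chd4 was the highest member at 0 h (mean 243). At 24 h Mta3 (258) and Gatad2b (242) were above Chd4 (234). Chd3, the closest paralogue of Chd4 and an alternative ATPase, rose from 71.2 and 69.4 CPM to 126 and 119 CPM (log2 0.80, SE 0.08, adjusted p 1.01e-08, edgeR quasi-likelihood), with no overlap between the times. Chd5, the neuronal member of the family, fell from 3.56 and 2.86 CPM to 0.477 and 0.434 CPM (log2 -2.81, SE 0.19). Of the summed level per kb of the CHD genes, Chd4 held 71.9% at 0 h and 59.0% at 24 h, with 27.5% and 40.9% for Chd3.

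Among the members the MTA genes parted most widely. MTA1, MTA2 and MTA3 are alternative scaffolds that each dock the deacetylases, and MTA3 has been studied in B cells as a partner of BCL6. Mta3 (chr17:83706163-83821516, plus strand) read 81.3 and 80.9 CPM at 0 h, 90.3 and 87.7 CPM at 30 min, 111 and 107 CPM at 1 h, 119.7 and 116 CPM at 2 h, and 116 and 114 CPM at 6 h. It then read 143 and 158 CPM at 12 h, 179.6 and 177 CPM at 15 h, 196 and 184 CPM at 18 h, 218 and 227 CPM at 21 h, and 256 and 259.6 CPM at 24 h. Every induced library was above both libraries at 0 h, and the libraries at 24 h were above all earlier ones.

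Mta3 thus rose 3.18-fold by 24 h (log2 1.67, SE 0.05, adjusted p 1.01e-18, edgeR quasi-likelihood with Benjamini-Hochberg, higher in 2 of 2 libraries). It passed from 1 h on (0.42, adjusted p 9.40e-08) but not at 30 min (0.13, adjusted p 0.0552). The gain came in separate steps, of 0.29 in log2 between 30 min and 1 h, 0.39 between 6 and 12 h, 0.24 between 12 and 15 h, 0.23 between 18 and 21 h and 0.21 between 21 and 24 h, each past an adjusted p of 0.01 in edgeR. Mta3 is also the longest member, with exons covering 4.61% of its 115 kb, so that most of its length is intron.

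Mta1 (chr12:113098278-113137206, plus strand) went the other way. It read 140.5 and 138 CPM at 0 h, 153 and 149 CPM at 30 min, 155 and 151 CPM at 1 h, 135 and 129.7 CPM at 2 h, and 89.8 and 90.9 CPM at 6 h. Later it read 74.1 and 82.9 CPM at 12 h, 70.9 and 71.1 CPM at 15 h, 54.6 and 44.8 CPM at 18 h, 48 and 52 CPM at 21 h, and 60.4 and 55.6 CPM at 24 h. All libraries from 6 h on lay below all those up to 2 h.

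At 18 h Mta1 was at its lowest against 0 h (log2 -1.48, adjusted p 9.72e-15), and at 24 h it was 2.40-fold lower (log2 -1.26, SE 0.07, adjusted p 1.28e-13, edgeR quasi-likelihood, lower in 2 of 2 libraries). Only the steps from 2 to 6 h (-0.55) and from 15 to 18 h (-0.51) passed by themselves.

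Mta2 (chr19:8941875-8952303, plus strand), an alternative scaffold of the complex, moved less. It read 69.2 and 67.6 CPM at 0 h, 48.5 and 41.8 CPM at 18 h, and 57.9 and 56.2 CPM at 24 h. Both late times lay below 0 h without overlap, with log2 changes of -0.60 at 18 h (adjusted p 2.38e-09) and -0.26 at 24 h (SE 0.06, adjusted p 0.000195, edgeR quasi-likelihood). Between 21 and 24 h Mta2 rose by 0.23. Mta2 and Mta3 were the only members that passed as rising in edgeR, where 4.06% of all genes rose. At an unadjusted p under 0.05, 6 members rose in this step. The count of members that fell in it was 0 in edgeR, where 4.57% of all genes fell, and 1 at an unadjusted p under 0.05. Both shares of all genes are for an adjusted p under 0.01, and none is given here for the unadjusted counts. The 2 calls of a rise were not firm: the count of members that rose was 1 without 21 h replicate 2, 0 without 21 h replicate 1 or either replicate at 24 h, and 1 under library totals.

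As a share of the summed MTA level per kb, Mta3 grew from 6.49% ± 0.0747 (SD, n = 2) at 0 h to 24.3% ± 0.683 at 24 h. Mta1 shrank from 33% ± 0.0574 to 16.2% ± 0.628. Mta2 held 60.5% and 59.5% and by this measure stayed the largest of the MTA genes at every time. In CPM, not divided by length, Mta2 was the lowest of them at 0 h (68.4, against 139 for Mta1 and 81.1 for Mta3). Exons cover 39.2% of Mta2 and 4.61% of Mta3, and the part of this difference in the shares was not tested.

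**Figure D3:**
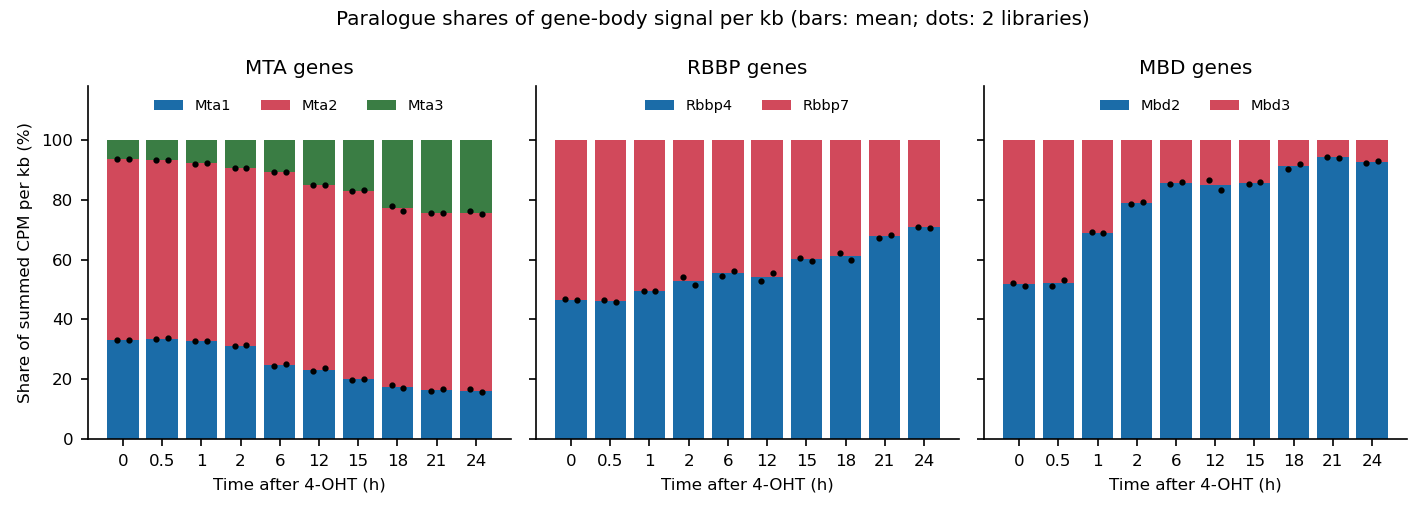
Share of the summed CPM per kb of gene body (vertical axis, percent) held by each MTA, RBBP and MBD gene at the 10 time points (horizontal axis), with bars for the mean of 2 libraries and dots for the boundaries in each library. Mta3 grows from 6.49% to 24.3%, Rbbp4 from 46.5% to 70.8% and Mbd2 from 51.7% to 92.8%.

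HDAC1 and HDAC2 are the catalytic deacetylases and also serve SIN3 and CoREST. Hdac1 (chr4:129516104-129542713, minus strand) read 92.3 and 93.1 CPM at 0 h and 89.6 and 85.5 CPM at 24 h, a log2 difference of -0.08 (SE 0.05) that did not pass (adjusted p 0.101, edgeR quasi-likelihood). Both libraries at 24 h were below both at 0 h. Hdac1 passed only at 15 h, at 107 and 105 CPM (log2 0.19, adjusted p 0.000761). From 15 to 18 h Hdac1 fell by 0.29 in log2 (adjusted p 2.84e-05). Its 20 libraries spanned only 82.5 to 107 CPM.

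Hdac2 (chr10:36974544-37001889, plus strand) read 55.1 and 54.8 CPM at 0 h and 38.5 and 39.9 CPM at 24 h, with no overlap. The log2 change of -0.49 (SE 0.07) passed (adjusted p 1.09e-06, edgeR quasi-likelihood, lower in 2 of 2 libraries), as did those at 15 h (-0.31) and 21 h (-0.36). At 18 h the 2 replicates were far apart, at 45.4 and 52.9 CPM, and the difference of -0.16 did not pass (adjusted p 0.0285). Hdac1 held 63.4% of the summed level per kb of the pair at 0 h and 69.6% at 24 h.

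RBBP4 and RBBP7 are near-identical WD40 histone chaperones that also sit in SIN3, PRC2 and, for RBBP4, the chromatin assembly factor CAF-1. Rbbp7 (chrX:162760402-162779092, plus strand) read 112 and 113 CPM at 0 h, 122 and 129 CPM at 30 min, 107 and 108 CPM at 1 h, 97.1 and 103 CPM at 2 h, and 91.1 and 87.0 CPM at 6 h. It went on to 79.4 and 71.1 CPM at 12 h, 57.7 and 60.7 CPM at 15 h, 47.4 and 50.7 CPM at 18 h, 38.1 and 39.4 CPM at 21 h, and 35.2 and 34.5 CPM at 24 h. After 30 min each time point lay below the one before it without overlap, through to 24 h.

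By 24 h Rbbp7 was 3.22-fold lower (log2 -1.69, SE 0.05, adjusted p 2.30e-17, edgeR quasi-likelihood with Benjamini-Hochberg, lower in 2 of 2 libraries), the largest fall of the 10. The difference first passed at 2 h (-0.17, adjusted p 0.00714). Steps passed from 30 min to 1 h (-0.22), 6 to 12 h (-0.24), 12 to 15 h (-0.35), 15 to 18 h (-0.27) and 18 to 21 h (-0.34). Txlng overlaps Rbbp7 on the opposite strand and, if counting did not use strand, could share reads with it. Its own level was 109 CPM at 0 h and 104 CPM at 24 h (log2 -0.06, adjusted p 0.132, edgeR).

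Rbbp4 (chr4:129307100-129335370, minus strand) first rose and then fell a little. It read 148 and 148 CPM at 0 h, 173 and 166 CPM at 2 h, 119 and 114 CPM at 18 h, and 130.3 and 125 CPM at 24 h. The libraries at 2 h were all above and those at 18 h and 24 h all below 0 h. In log2 the differences were 0.20 at 2 h (adjusted p 0.000195), -0.34 at 18 h (7.77e-08) and -0.21 at 24 h (SE 0.04, 6.90e-05; edgeR quasi-likelihood). Sync, which overlaps Rbbp4 on the opposite strand, was at 10.5 CPM at 0 h and 8.04 CPM at 24 h, far below it. Per kb the pair changed order: Rbbp7 led at 0 h with 53.5% of their sum, and Rbbp4 held 70.8% ± 0.257 (SD, n = 2) at 24 h. In CPM, not divided by length, Rbbp4 was above Rbbp7 in every library, with a lowest log2 ratio of 0.36. Exons cover 30.9% of Rbbp4 and 15.6% of Rbbp7, and the part of this difference in the order was not tested.

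Promoter sequences are shown for this pair, whose levels parted, and for Mta1, the MTA gene with the larger of the 24 h falls. Each is the 250 bases before the RefSeq start on GRCm38.p6, 5′ to 3′ on the gene's strand, at chr4:129335371-129335620 (minus) for Rbbp4, chrX:162760122-162760371 (plus) for Rbbp7 and chr12:113098028-113098277 (plus) for Mta1. Capitals mark GGAA and GGGA, the core letters that Ikaros zinc fingers are known to read, and their complements TTCC and TCCC. Matches were sought on both strands and can overlap one another. The Rbbp7 window ends short of the GENCODE start of the gene at chrX:162760402. Bases shortly after this window were not found in a GENCODE transcript of Rbbp7, while those after the Rbbp4 and Mta1 windows were found in transcripts of their genes.
Rbbp4: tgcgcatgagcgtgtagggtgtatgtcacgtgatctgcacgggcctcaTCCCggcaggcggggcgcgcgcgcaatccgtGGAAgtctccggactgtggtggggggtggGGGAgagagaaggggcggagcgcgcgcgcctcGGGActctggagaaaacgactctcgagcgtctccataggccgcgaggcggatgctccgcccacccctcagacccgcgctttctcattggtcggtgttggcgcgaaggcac
Rbbp7: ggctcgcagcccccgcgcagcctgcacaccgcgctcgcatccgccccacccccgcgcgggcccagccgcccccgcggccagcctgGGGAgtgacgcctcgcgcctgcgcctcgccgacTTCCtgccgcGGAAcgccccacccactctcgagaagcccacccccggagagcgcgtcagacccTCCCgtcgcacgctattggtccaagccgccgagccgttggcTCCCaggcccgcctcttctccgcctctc
Mta1: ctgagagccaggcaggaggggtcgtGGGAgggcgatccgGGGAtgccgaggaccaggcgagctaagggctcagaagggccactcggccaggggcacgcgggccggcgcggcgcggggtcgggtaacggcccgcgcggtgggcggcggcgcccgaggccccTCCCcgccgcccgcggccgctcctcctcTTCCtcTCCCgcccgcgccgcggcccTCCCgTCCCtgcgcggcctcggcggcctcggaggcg

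Rbbp4 held 4 such matches, Rbbp7 5 and Mta1 7. Among all 32851 promoter windows of this length the median was 6 (quartiles 4 and 8), 98.9% held at least 1, and 80.1%, 67.9% and 42.0% held as many as Rbbp4, Rbbp7 and Mta1 or more. The other members with a window ranged from 2 matches for Mbd3 to 8 in one window of Gatad2b, and 8 of the 10 members had a window. A match is only a description of letters, and no binding was measured here. GC content was 67.6% for Rbbp4, 76.4% for Rbbp7 and 80.8% for Mta1, above the 53.2% of all windows.

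MBD3 is the methyl-CpG-binding-domain protein that, unlike MBD2, has little affinity for methylated DNA, and both are found in separate NuRD complexes. Mbd3 (chr10:80392539-80399550, minus strand), the shortest member at 7.01 kb and the lowest in CPM, read 19.4 and 20.6 CPM at 0 h, 21.7 and 20.4 CPM at 30 min, 24.3 and 25.1 CPM at 1 h, 18.2 and 17.5 CPM at 2 h, and 17.5 and 16.7 CPM at 6 h. Thereafter it read 12.8 and 14.7 CPM at 12 h, 14.8 and 14.1 CPM at 15 h, 11.1 and 9.56 CPM at 18 h, 8.55 and 8.63 CPM at 21 h, and 10.3 and 9.42 CPM at 24 h. Levels at 1 h were above and levels from 2 h on below both libraries at 0 h.

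Mbd3 rose by 0.30 in log2 at 1 h (adjusted p 0.00133) and dropped by 0.47 from 1 to 2 h (adjusted p 4.06e-05, edgeR quasi-likelihood with Benjamini-Hochberg). The fall passed from 12 h on and was deepest at 21 h (-1.22, adjusted p 1.50e-11). At 24 h Mbd3 was 2.02-fold lower (log2 -1.02, SE 0.08, adjusted p 1.79e-10, lower in 2 of 2 libraries). That value sat close to 2-fold and fell short of it when 1 library was left out, at -0.98 without 0 h replicate 2 and -0.95 without 24 h replicate 2.

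Mbd2, the paralogue that binds methylated DNA, rose early and far. It read 175 and 178 CPM at 0 h, 188 and 190.2 CPM at 30 min, 449 and 455 CPM at 1 h, 826 and 844 CPM at 6 h, and 1044 and 1046 CPM at 24 h. The jump from 30 min to 1 h was 1.25 in log2, and at 24 h Mbd2 was 5.92-fold higher (log2 2.57, SE 0.04, adjusted p 2.44e-22, edgeR quasi-likelihood). Between 6 and 12 h it fell by 0.39, when its replicates at 12 h read 672 and 605 CPM. Of the summed level per kb of the MBD pair, Mbd3 held 48.3% ± 0.763 (SD, n = 2) at 0 h, 14.5% ± 0.602 at 6 h and 7.25% ± 0.457 at 24 h.

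GATAD2B (p66-beta) and its paralogue GATAD2A (p66-alpha) tie the MBD protein to CHD4. Gatad2b (chr3:90293178-90363407, plus strand) read 190.3 and 199 CPM at 0 h, 223 and 228 CPM at 15 h, and 239 and 244 CPM at 24 h. Both late times lay above 0 h, and the log2 change at 24 h was 0.31 (SE 0.05, adjusted p 2.08e-06, edgeR quasi-likelihood, higher in 2 of 2 libraries). Under library totals alone it did not pass (0.05, adjusted p 0.308, edgeR). Gatad2a fell from 256 and 255 CPM to 163 and 159 CPM (log2 -0.66, SE 0.05, adjusted p 6.77e-11). Per kb, Gatad2b held 49.2% of their sum at 0 h and 65.6% at 24 h. Exons cover 16.3% of Gatad2b and 6.26% of Gatad2a, and the part of this difference in the shares was not tested. The antisense RNA 4930537H20Rik over Gatad2b had only 2 to 16 counts per library.

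Of the 2 small subunit genes, Cdk2ap1 (DOC-1) fell from 14.4 and 15.4 CPM to 4.98 and 4.48 CPM (log2 -1.66, SE 0.09, adjusted p 5.44e-13, edgeR quasi-likelihood). Cdk2ap2 read 2.25 and 2.90 CPM at 0 h and 2.80 and 2.39 CPM at 24 h, which overlapped (log2 0.01, adjusted p 0.955). Among the 6 NuRD genes outside the 10, 2 were higher (35.4% of all genes) and 3 lower (36.1%) at 24 h.

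Because a ratio of paralogues within a library does not depend on scaling between libraries, 8 ratios were compared between the 8 early libraries (0 to 2 h) and the 10 late ones (12 to 24 h) by an exact two-sided permutation test. Values are log2 ratios of normalized counts, not corrected for length. Mta1 to Mta3 moved most among pairs of members: it ranged from 0.16 to 0.79 early and from -2.22 to -0.93 late. The mean went from 0.55 ± 0.27 (SD, n = 8) to -1.70 ± 0.52 (n = 10), a 4.77-fold fall of the ratio. Mta1 to Mta2 fell by 0.84 and Mta2 to Mta3 by 1.41 in log2, also with no overlap of early and late libraries.

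Mbd3 to Mbd2 went from -3.86 ± 0.81 (SD, n = 8) to -6.27 ± 0.64 (n = 10), a 5.31-fold fall of the ratio, and Gatad2b to Gatad2a rose from -0.36 ± 0.08 to 0.31 ± 0.24. For these and the 3 MTA ratios the exact permutation p was 2.29e-05, the smallest that the 43758 permutations can give, and 3.66e-05 after Benjamini-Hochberg adjustment over the 8 pairs. Rbbp4 to Rbbp7 rose by 0.84 (exact permutation p 0.000137, adjusted 0.000183) and Hdac1 to Hdac2 by 0.31 (exact permutation p 0.00110, adjusted 0.00125). Chd4 to Chd3 fell by 0.35 (exact permutation p 0.00139, adjusted 0.00139). In these last 3 pairs some early and late libraries overlapped. The 18 libraries are 9 time points of one line, so that the test compares early with late libraries and not independent cultures.

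**Figure D4:**
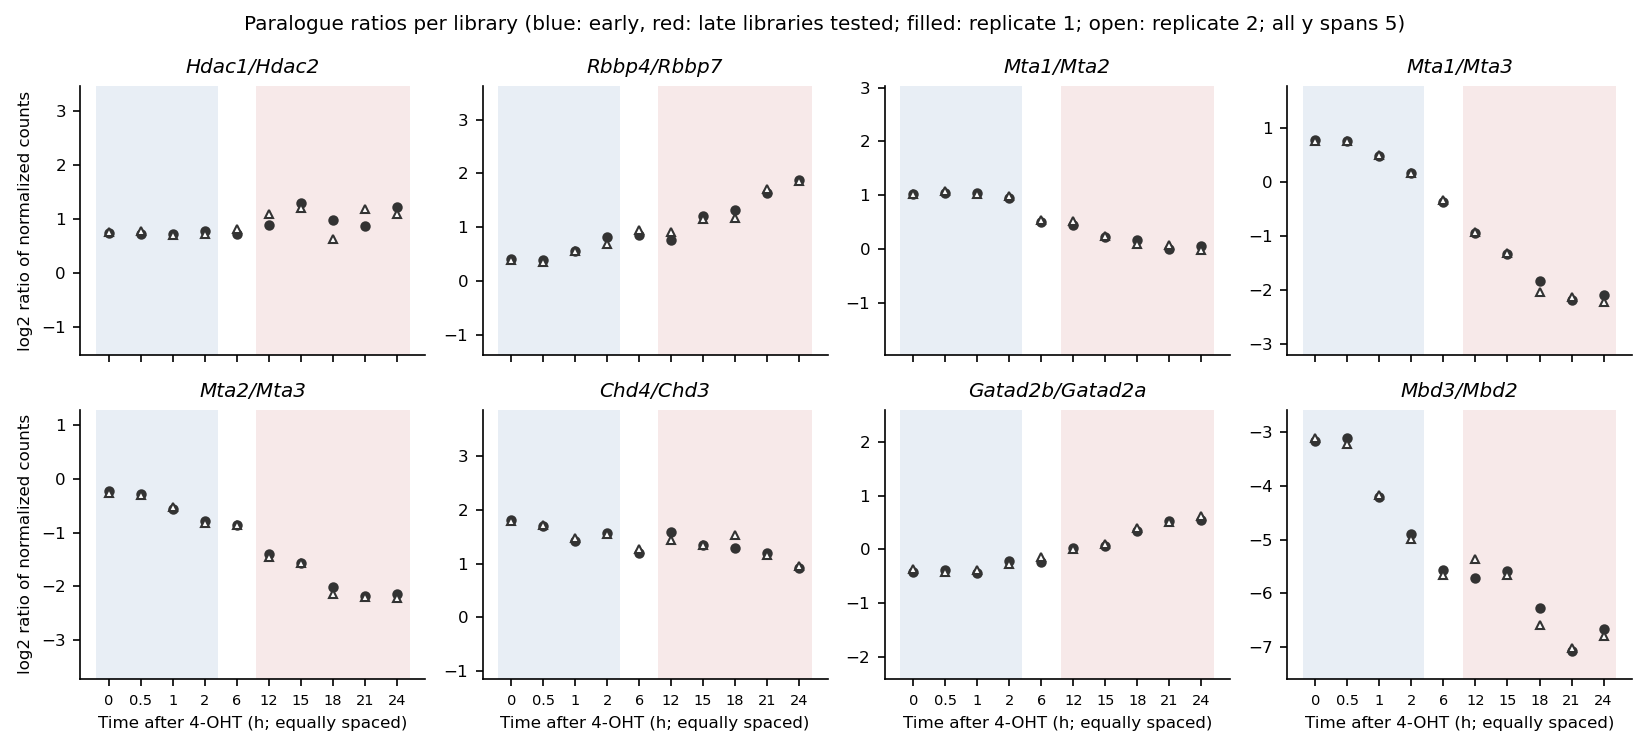
Log2 ratio of normalized counts for 8 paralogue pairs (vertical axes, all with the same span) in each library at the 10 time points (horizontal axis), with blue shading for the 8 early and red for the 10 late libraries compared, filled circles for replicate 1 and open triangles for replicate 2. Mta1/Mta3 goes from a mean of 0.55 early to -1.70 late and Mbd3/Mbd2 from -3.86 to -6.27, while Hdac1/Hdac2 moves by 0.31.

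The order of the members by CPM per kb of gene body changed with these shifts. At 0 h it ran Chd4 (7.03), Mta2 (6.56), Rbbp7 (6.00), Rbbp4 (5.23), Mta1 (3.58), Hdac1 (3.48), Mbd3 (2.85), Gatad2b (2.77), Hdac2 (2.01) and Mta3 (0.703), and only the neighbours Mbd3 and Gatad2b overlapped between replicates. At 24 h Chd4 (6.76), Mta2 (5.47) and Rbbp4 (4.52) led, followed by Gatad2b (3.44), Hdac1 (3.29), Mta3 (2.24) and Rbbp7 (1.86). Mta1 (1.49), Hdac2 (1.43) and Mbd3 (1.41) came last, and Mta1 and Mbd3 each overlapped Hdac2. Mta3 had moved from the last place to the sixth and Rbbp7 from the third to the seventh. This order holds per kb only. In CPM, not divided by length, Mta3 went from 81.1 at 0 h to 258 at 24 h, then the highest of the members. Mta2, next to Chd4 per kb at 0 h, was at 68.4 CPM, below Mta3. The part of gene length and exon share in the order was not tested.

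At the early times few member differences passed. At 30 min 0 members were called by edgeR and 0 by DESeq2 at an adjusted p under 0.01. In edgeR 3.70% of all genes were higher and 4.74% lower at that threshold. By either tool, 4 members had an unadjusted p under 0.05. The share of all genes with an unadjusted p under 0.05 is not given here, so that this count has no background beside it. Median member log2 change was 0.11 at 30 min and 0.13 at 1 h, against 0.01 and 0.02 for all genes. At 1 h Mta3 and Mbd3 were higher (background 19.2%) and 0 were lower (17.1%), and in edgeR and in DESeq2 alike 0 were lower at an unadjusted p under 0.05. The spread used in these tests is shared with the 12 h and 18 h libraries. Without those 4 libraries, an alternative chosen after seeing the data, Mta1, Mta3, Rbbp4 and Rbbp7 passed as higher at 30 min (log2 0.12 to 0.16 in edgeR). At 1 h 9 members, all but Rbbp7, did so (0.09 to 0.42). The shares of all genes printed above belong to the main test. No such share is given for this alternative, so that its counts have no background beside them.

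At 2 h Mta3 and Rbbp4 were higher (23.9% of all genes) and Chd4 and Rbbp7 lower (23.8%). The count lower was 0 without replicate 1 at 0 h or at 2 h and 1 without replicate 2 at either time. At 6 h Mta3 and Rbbp4 were higher (30.0%) and Mta1 and Rbbp7 lower (27.3%). The count lower at 6 h was 4 without the 12 h and 18 h libraries, again with no share of all genes to set beside it. Mta3 was thus the one member that passed as higher at every time from 1 h on.

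At 12 h Mta3 was higher (31.2% of all genes) and Mta1, Mta2, Rbbp4, Rbbp7 and Mbd3 were lower (29.5%). A further member passed as higher, 2 in all, without 12 h replicate 1. At 15 h all 10 passed, with Chd4, Mta3, Hdac1 and Gatad2b higher (33.1%) and the other 6 lower (32.6%). At 18 h Mta3 was higher (35.3%) and the same 5 as at 12 h were lower (36.0%). At 21 h Mta3 and Gatad2b were higher (35.7%), and 7 were lower (36.0%), all but Mta3, Gatad2b and Hdac1.

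Between 15 and 18 h, 7 members fell in one step, Chd4, Mta1, Mta2, Hdac1, Rbbp4, Rbbp7 and Mbd3, where 16.1% of all genes fell, and 0 rose in edgeR, where 13.0% of all genes did and 1 member did at an unadjusted p under 0.05. The median log2 step of all 10 members was -0.28, against -0.01 for all genes. Mbd3 (-0.48), Mta1 (-0.51) and Mta2 (-0.41) took the largest of these steps and Rbbp4 (-0.21) the smallest. The 18 h replicates differed more than any others, and the part of that difference in this step was not tested. Mta3 was the 1 member that passed as rising from 30 min to 1 h (16.3% of all genes), from 6 to 12 h (14.0%), from 12 to 15 h (9.58%) and from 18 to 21 h (7.10%). The count that rose was 2 from 6 to 12 h without 12 h replicate 1 and 3 from 12 to 15 h without 12 h replicate 2. From 18 to 21 h it was 2 without 18 h replicate 1, and 0 without 21 h replicate 2 or under library totals. Rbbp7 was the 1 member that passed as falling from 30 min to 1 h (15.7%) and from 18 to 21 h (5.31%). The earlier of these counts was 0 without 30 min replicate 2 or 1 h replicate 1, and the later was 2 without either 18 h replicate and 4 under library totals. From 1 to 2 h Chd4 and Mbd3 fell (13.3%) and 0 members rose in edgeR (9.07%), where 2 rose at an unadjusted p under 0.05. The counts at an unadjusted p have no share of all genes beside them. From 2 to 6 h Chd4 rose (19.6%) and Mta1 fell (14.8%). From 6 to 12 h Hdac2, Rbbp4, Rbbp7 and Mbd3 fell, where 13.5% of all genes fell, and this count was 1 without 6 h replicate 1 and 2 without 6 h replicate 2.

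The genes whose mean profile over the 10 time points was most like those of the largest riser and the largest faller were sought among 3245 genes. For Mta3 they were Zc3h7a (Pearson r 0.994), Abcb4 (0.993) and Glg1 (0.992). For Rbbp7 they were Naa50 (0.999), Nop58 (0.999) and Ranbp1 (0.998). The points share libraries and scaling, and the values are descriptions.

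NuRD subunits also serve other complexes, whose remaining genes were set beside them at 24 h. The SIN3 complex shares HDAC1, HDAC2, RBBP4 and RBBP7. Of its 11 genes tested, 3 were higher (35.4% of all genes) and 3 lower (36.1%), with a median log2 of -0.06. Arid4b, a chromodomain subunit, rose most (275 to 1135 CPM, log2 2.04) and Sap18 fell most (23.5 to 12.5 CPM, log2 -0.91). Under library totals alone 7 of the SIN3 genes were lower. In the CoREST and CtBP list, which shares the deacetylases, 4 of 9 were higher and 2 lower (median 0.14), from Phf21a (279.6 to 998 CPM, log2 1.84) to Rcor2 (6.56 to 3.99 CPM, log2 -0.72). Under library totals alone 3 were higher and 2 lower, and that median turned to -0.12.

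PRC2, the histone H3K27 methyltransferase, holds RBBP4 or RBBP7. Of its 8 genes, 3 were higher (35.4% of all genes) and 5 lower (36.1%), with a median log2 of -0.33. Jarid2 rose most (278 to 668 CPM, log2 1.27) and Phf19 fell most (23.0 to 6.10 CPM, log2 -1.91). All 14 genes tested for chromatin assembly and S phase, among them the CAF-1 partners of RBBP4, were lower (median log2 -2.37), with Tyms (138 to 4.06 CPM, log2 -5.09) the furthest. The members' median of -0.24 lay between the SIN3 and PRC2 medians. The part of the S phase genes' fall in the changes of Rbbp4, Rbbp7 and the other members was not tested.

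**Figure D5:**
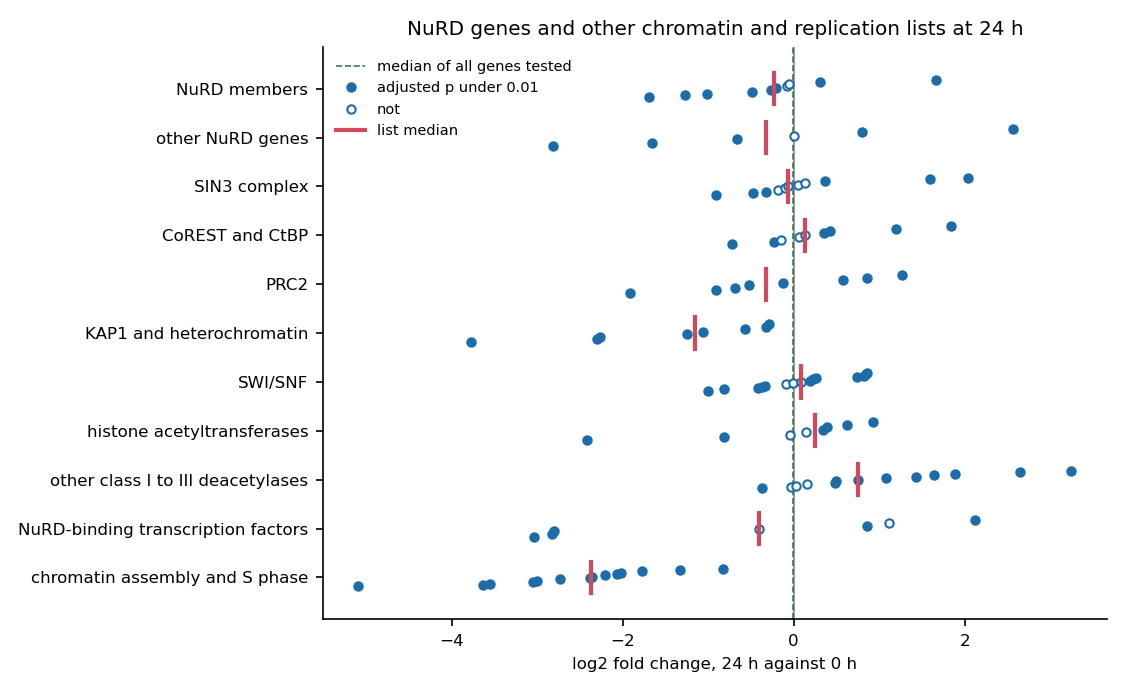
Log2 fold change at 24 h against 0 h (horizontal axis) of each gene tested in the NuRD members and 10 other lists (rows), with filled circles for an adjusted p under 0.01, open circles for the rest, red bars for list medians and a dashed line for the median of all genes. The members spread from -1.69 to 1.67 around a median of -0.24, and the chromatin assembly and S phase genes lie between -5.09 and -0.83.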

How the data were processed

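The authors aligned reads of 20 libraries to mm10 with STAR, counted them by gene with featureCounts, also within introns, and deposited raw counts. Annotation release, strand setting and treatment of reads shared between paralogues are not given in the sources used here. Because whole gene bodies were counted, long genes weigh by their introns, and reads carry no molecular identifiers.

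Genes reaching 10 counts in 2 or more libraries entered the tests, made with edgeR 4.0.16 in R 4.3.3 (TMM, quasi-likelihood, time point as a factor, Benjamini-Hochberg), as a whole and against 0 h or the time before. DESeq2 1.42.0 was an alternative. Other alternatives were size factors, library totals, low-count filters, a replicate block, a threshold of 0.05, models of 4 libraries and leaving out replicates. Paralogue ratios (prior count 0.5) were compared by exact permutation. Gene spans came from GENCODE M21, in which 55154 of the 56239 identifiers counted were found, and promoters from RefSeq. On simulated counts of 15999 genes edgeR recovered 100% of 200 genes changed at 24 h and called 2 others. In the data themselves 35.4% of all genes were higher and 36.1% lower at 24 h, and recovery with so many genes changed was not tested. Recovery by size of change is not given here, so that the 100% does not extend to the small log2 changes of most members.

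Members, lists and the rule for named genes were chosen with earlier results of these data known. Named were all NuRD genes, the gene with the largest rise and fall of each list at 24 h, and the 3 most like Mta3 and Rbbp7 (mean of at least 10 CPM).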

Additional observations from a re-analysis of the deposited data

How the results depend on the processing

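The whole time course gave 4 called members under all alternatives run, and the 24 h directions of Mta1, Mta3, Rbbp7 and Mbd3 held in all of theirs (-1.52 to -1.20, 1.41 to 1.68, -1.95 to -1.67 and -1.28 to -0.95). All 8 paralogue ratios kept their direction. Counts of members that moved by over 1.5 times follow, and the cause was not tested. Under library totals the counts were 1 lower at 2 h, 8 lower at 18 h, 1 higher at 21 h and 1 higher at 24 h, with 2 lower from 2 to 6 h, 0 higher and 4 lower from 18 to 21 h, 1 higher from 21 to 24 h, 7 SIN3 genes and 2 deacetylases lower and 4 SWI/SNF genes higher. With at least 10 counts in every library, and with DESeq2, 1 was lower at 2 h. At an adjusted p under 0.05, 2 were higher at 30 min, 6 at 1 h and 2 at 12 h. In models of only 4 libraries 5 were higher at 30 min, 9 higher and 1 lower at 1 h, 4 lower at 2 h and 4 lower at 6 h. Chosen after seeing the data, leaving out 12 h and 18 h gave 4 higher at 30 min, 9 higher at 1 h and 4 lower at 6 h. The share of all genes that passed under each of these alternatives is not given here, and these counts have no background beside them.

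Leaving out 1 library at a time gave 1 to 2 higher at 1 h, 0 to 1 lower at 2 h, 1 to 2 higher at 12 h and 1 to 2 higher at 21 h. For steps it gave 0 to 1 lower from 30 min to 1 h, 1 to 2 higher and 1 to 3 lower from 6 to 12 h, 1 to 3 higher from 12 to 15 h (3 without 12 h replicate 2), 0 to 1 higher from 15 to 18 h, 0 to 2 higher and 1 to 2 lower from 18 to 21 h and 0 to 1 higher from 21 to 24 h. For lists it gave 0 to 1 lower deacetylases and 1 to 2 higher NuRD-binding factors. The replicate block left 1 member higher from 21 to 24 h in place of 2 and changed no other count by over 1.5 times. The share of all genes is not given for the fits without 1 library or with the replicate block. Counts from these fits therefore have no background beside them. Pairing was not evident: deviations of same-numbered replicates correlated by 0.0281 on average over 45 pairs of time points (-0.664 to 0.471, 18 over 0.1). Depth allows counting error of a few percent for most members, and 2 replicates limit the rest.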

Other observations

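Chromatin genes outside the complexes that share NuRD subunits also moved at 24 h. All 8 genes of the KAP1 and heterochromatin list were lower at an adjusted p under 0.01 in edgeR (median log2 -1.15, against -0.01 for all genes tested), and Uhrf1, which recruits the maintenance DNA methyltransferase, went furthest, from 206 to 15.1 CPM (log2 -3.77, SE 0.05). Of 13 deacetylases other than Hdac1 and Hdac2, 9 were higher (35.4% of all genes) and 1 lower (36.1%), with a median log2 of 0.75. The lower one was Hdac10 (14.2 to 11 CPM, log2 -0.37). Hdac11 had the largest rise among the 13 but stayed low, at 0.0662 CPM at 0 h and 0.659 CPM at 24 h.

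Of 8 histone acetyltransferase genes, 4 were higher (35.4% of all genes) and 2 lower (36.1%), with a median log2 of 0.24. Under library totals alone, however, 3 were higher and 3 lower (median -0.01). Ep300 rose from 158 to 301 CPM (log2 0.92) and Kat2a fell from 19.1 to 3.58 CPM (log2 -2.41). In SWI/SNF, the activating remodeller, 7 of 15 genes were higher and 5 lower (median log2 0.08), from the ATPase gene Smarca4 (644 to 1167 CPM, log2 0.86) to Smarcb1 (106 to 53.1 CPM, log2 -1.0). That balance turned under library totals alone, with 4 higher and 7 lower (median -0.17).

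Of 12 listed genes for transcription factors that bind NuRD, 7 had enough counts to be tested. Among these 7, 2 were higher (35.4% of all genes) and 3 lower (36.1%), with a median log2 of -0.41. The 2 higher were Ikzf1, whose counts can hold the fusion, and Ikzf4, which was near the floor at 0.0648 to 0.380 CPM over the libraries. Ikzf3, the Ikaros family member Aiolos, fell from 24.4 to 2.99 CPM (log2 -3.03), and Ikzf4 was at 0.0662 CPM at 0 h and 0.294 CPM at 24 h.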
